A study of Mus musculus with 12 samples.

Results

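The genes described here encode the glutamate receptors of mouse brain and a family of auxiliary subunits of the AMPA receptor. Their rows were found by gene symbol, and all 29 symbols sought were among the 23183 listed in each library. The 29 genes fall into 6 classes: 4 AMPA receptor subunits, 7 NMDA receptor subunits, 5 kainate receptor subunits, 1 delta receptor, 7 metabotropic receptors and 5 *Cacng* auxiliary subunits of the AMPA receptor. RNA sequencing was performed on cortex and hippocampus of male C57BL/6 mice, collected 3 months after a single 10 Gy dose to the whole brain (IR) or after sham irradiation with 0 Gy (Con). The mice were bought at 7 weeks of age, kept for 1 week before the experiment. Mice of both groups took open-field and elevated plus maze tests, and it is not stated whether the sequenced mice were among them. Each of the 4 groups had 3 libraries, 12 in all, and which mice gave the RNA of each library is not stated, so p values measure the spread between these libraries. Both tissues lay in the irradiated field, so neither is an unexposed control.

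Glutamate is the main excitatory transmitter of the brain. AMPA receptors are channels that carry most of the fast excitatory current, NMDA receptors are slower channels that pass calcium and are needed for many forms of synaptic plasticity, and kainate receptors act at both sides of the synapse. Metabotropic receptors signal through G proteins, and the *Cacng* proteins (stargazin and its relatives) bind AMPA receptors, bring them to the synapse and slow their closing.

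The deposited values are FPKM, which divide a gene's fragments by its transcript length and by the size of the library, and depth in reads is unknown. FPKM summed to between 359773 and 393447 per library, and no further scaling was applied. Cortical layer markers (*Cux2*, *Rorb*, *Fezf2*, *Foxp2* and *Tbr1*) summed to between 96.0 and 105 FPKM in the cortex and between 29.5 and 37.1 FPKM in the hippocampus. Dentate granule cell markers (*Prox1*, *C1ql2*, *Dsp* and *Tdo2*) summed to between 4.20 and 6.46 FPKM in the cortex and between 72.9 and 100.4 FPKM in the hippocampus, with *Dsp* under 0.1 FPKM in every cortex library. Hippocampus Con 3 had a median absolute log2 distance of 0.145 from the rest of its group, the largest of the 12 libraries. Hippocampus Con 1 followed at 0.132. The dentate marker sum of Con 3 was 72.9 FPKM against 92.0 and 94.1 FPKM in the other Con libraries. That low sum came from *C1ql2*, at 43.6 FPKM against 70.7 and 57.8 FPKM in Con 1 and Con 2. *Prox1* was highest of the group in Con 3 at 16.7 FPKM, and *Dsp* and *Tdo2* lay between the other Con libraries. Results that depend on hippocampus Con 3 are given with and without it. Choroid plexus markers (*Ttr*, *Folr1*, *Kl* and *Clic6*) summed to 436 FPKM in cortex IR 2, 1052 FPKM in hippocampus Con 2 and 1637 FPKM in hippocampus IR 1, against 3.43 to 65.3 FPKM in the other libraries. The part of this tissue in the results below was not tested.

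Promoters are shown first for 4 of the receptor genes. The RefSeq promoter table (GRCm38.p6) held 24 sequences for 20 of the 29 genes, each running from 250 bases before to 50 bases after an annotated start. The 4 were chosen after their values and motifs were seen: *Gria2* and *Grm2* because both hold the parts of the RE1 element, the site of the neuronal gene repressor REST, and *Grik4* and *Grik3* because these kainate subunits differed between the tissues in opposite directions. Capitals mark the RE1 parts (AGCACC and GGACAGC, or their reverse complement) in the first pair and every GC box (GGGCGG or its reverse complement, the Sp1 site) in the second pair. All sequences read 5′ to 3′ on the strand of the gene.
Gria2 (chr3:80802786-80803085, minus strand): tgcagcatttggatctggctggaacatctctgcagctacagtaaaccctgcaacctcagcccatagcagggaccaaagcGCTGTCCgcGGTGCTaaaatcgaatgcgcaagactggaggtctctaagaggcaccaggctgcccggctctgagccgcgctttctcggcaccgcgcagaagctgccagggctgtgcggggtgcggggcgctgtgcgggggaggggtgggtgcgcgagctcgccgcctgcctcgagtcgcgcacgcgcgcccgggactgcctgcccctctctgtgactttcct
Grm2 (chr9:106656060-106656359, minus strand): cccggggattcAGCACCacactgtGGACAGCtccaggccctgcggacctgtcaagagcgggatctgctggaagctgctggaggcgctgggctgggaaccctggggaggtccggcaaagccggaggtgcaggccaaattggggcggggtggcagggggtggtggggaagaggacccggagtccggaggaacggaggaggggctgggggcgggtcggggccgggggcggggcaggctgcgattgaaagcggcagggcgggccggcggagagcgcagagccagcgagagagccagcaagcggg
Grik4 (chr9:42944322-42944621, minus strand): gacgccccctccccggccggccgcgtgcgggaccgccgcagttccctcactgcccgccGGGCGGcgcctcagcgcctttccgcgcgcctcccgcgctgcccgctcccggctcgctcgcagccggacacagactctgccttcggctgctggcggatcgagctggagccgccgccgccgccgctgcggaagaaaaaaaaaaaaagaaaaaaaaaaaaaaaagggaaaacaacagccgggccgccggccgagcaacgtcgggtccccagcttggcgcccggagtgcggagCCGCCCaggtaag
Grik3 (chr4:125490446-125490745, plus strand): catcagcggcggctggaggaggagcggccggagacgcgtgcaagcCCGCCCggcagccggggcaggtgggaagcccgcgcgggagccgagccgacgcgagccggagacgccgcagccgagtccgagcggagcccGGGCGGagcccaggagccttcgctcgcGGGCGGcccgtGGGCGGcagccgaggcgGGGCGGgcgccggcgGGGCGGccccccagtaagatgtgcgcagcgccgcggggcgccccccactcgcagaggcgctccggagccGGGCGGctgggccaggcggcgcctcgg
In *Gria2* the RE1 parts lay 2 bases apart, and in *Grm2* they lay 7 bases apart. With both strands searched, the parts in this order and at the closer spacing occurred in 10 of 32851 promoters (0.0304%) and the wider spacing in 3 (0.00913%), and *Gria2* and *Grm2* were the only 2 of the 24 promoters of the receptor genes to hold either. The GC box occurred in 12 of the 24 promoters against 35.7% of all promoters, with 7 copies in *Grik3*, 2 in *Grik4*, 4 in *Grm2* and none in *Gria2*. The *Grm7* sequences overlap and share the same GC box, which is counted in each, and *Grm8* and *Cacng5* also enter with several sequences. Median GC content was 61.5% in the 24 promoters and 52.7% in all. The cyclic AMP element (TGACGTCA) was in none of the 24 and in 1.79% of all promoters. A match of letters is a description of the sequence and says nothing of binding in these tissues. A link between these motifs and the levels given below was not tested.

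Transcripts of 27 of the 29 genes passed the filter of at least 0.5 FPKM in at least 3 libraries in every comparison. The other two were *Grm6*, a receptor of retinal bipolar cells that was listed at 0 in 10 of the 12 libraries and at 0.0128 and 0.0127 FPKM in cortex IR 2 and hippocampus IR 3, and *Grin3b*, an NMDA subunit of motor neurons that was between 0.0545 and 0.199 FPKM. Exons of *Grin3b* overlap those of *Tmem259* on the opposite strand, and it is not stated whether counting used the strand. In cortex Con, *Grin1*, the subunit that every NMDA receptor needs, stood first with 123 ± 3.72 FPKM (SD, n = 3). *Gria2*, the AMPA subunit that blocks calcium entry, came next with 113 ± 9.35 FPKM (SD, n = 3). *Cacng7*, *Grik5*, *Gria1* and *Cacng3* followed at 81.5, 72.9, 65.8 and 65.3 FPKM, each overlapping its neighbour in that order. In hippocampus Con the order was led by *Gria1* at 292 ± 19.6 FPKM and *Gria2* at 169 ± 6.53 FPKM (SD, n = 3). *Cacng8* at 131 FPKM, *Grin1* at 124 FPKM, *Grik5* at 87.6 FPKM and *Cacng7* at 70.1 FPKM came next, without overlap between neighbours. The lowest of the 27 were *Cacng5* in the cortex at 1.41 FPKM and *Grm8* in the hippocampus at 1.15 FPKM. FPKM are scaled by length, so these levels can be set side by side.

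**Figure D1:**
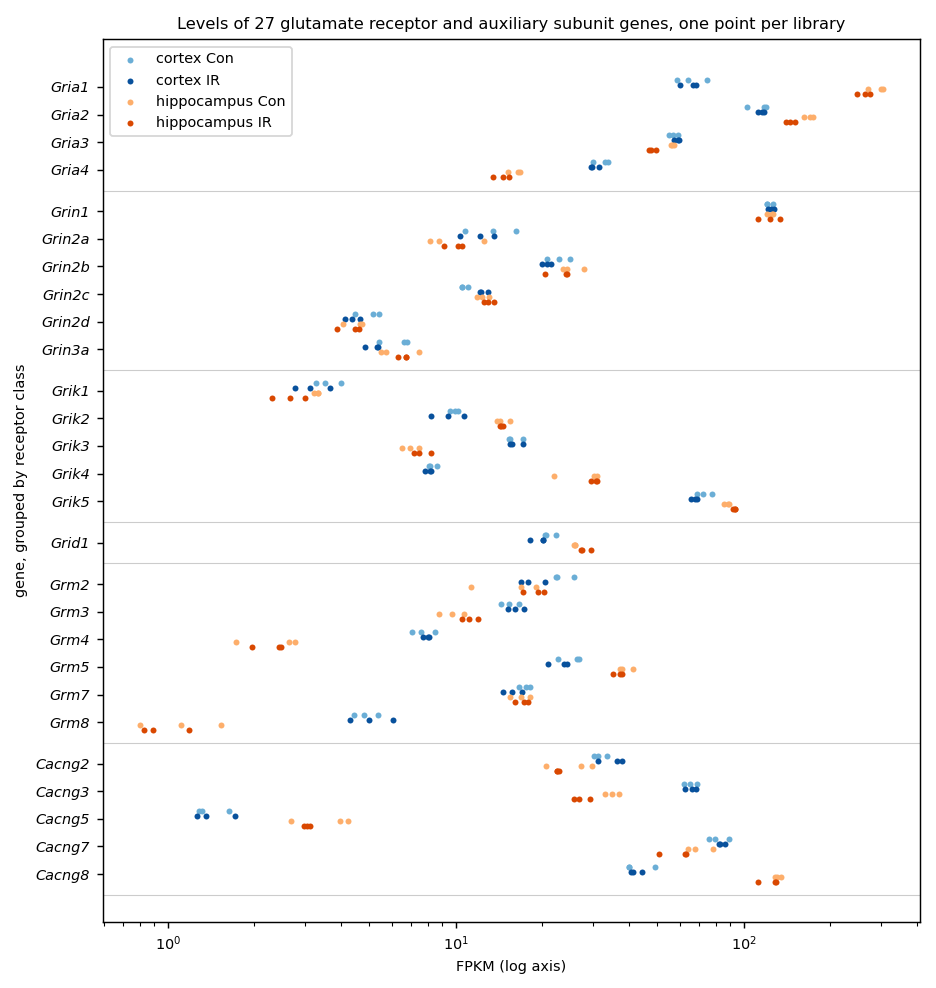
FPKM (log axis) of the 27 tested genes by receptor class, with a point for each of the 12 libraries and a colour for each group of 3. *Gria1*, *Grik4* and *Cacng8* lie to the right in the hippocampus and *Gria4*, *Grik3*, *Grm4*, *Grm8* and *Cacng3* to the left, while Con and IR points of a tissue lie close together.

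The first comparison asked which of these genes differ between hippocampus and cortex in sham-irradiated mice. In limma on log2(FPKM + 1), 16 of the 27 genes differed at an adjusted p under 0.05, 9 higher and 7 lower in the hippocampus. The share was 59.3%, against 36.3% of the 14169 genes tested (19.0% higher and 17.3% lower). At an unadjusted p under 0.05 there were 19 of the 27 genes (70.4%, against 45.7% of all genes). The groups did not overlap for 18 of the 27 genes (66.7%), against 49.8% of all genes. The median absolute log2 fold change was 0.51 over the 27 genes and 0.21 over all genes. Leaving out hippocampus Con 3 gave 17 genes, against 39.6% of all genes. Leaving out each library in turn gave between 13 and 18, against 25.8% to 39.6% of all genes. Fold changes in this and the later comparisons are on the log2(FPKM + 1) scale and compare whole tissue, in which fewer cells of a type and less RNA per cell cannot be told apart. The value columns of cortex and hippocampus files are also named differently, so a difference between processing runs cannot be told apart from the difference between tissues.

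Among AMPA subunits, *Gria1* (chr11:57011387-57330244), the subunit known for its recruitment to synapses during potentiation, was 58.9, 74.5 and 63.9 FPKM in cortex Con 1 to 3. In hippocampus Con 1 to 3 it was 305, 300.4 and 269 FPKM. Every hippocampus library was thus far above every cortex library, with a log2 fold change of 2.14 (SE 0.10, adjusted p = 7.15e-07, limma). *Gria2* was also higher in the hippocampus (log2 fold change 0.58, adjusted p = 0.000728). *Gria4*, the subunit of fast receptors that is common in interneurons, was lower at 16.1 ± 0.784 FPKM against 32.3 ± 2.07 FPKM in the cortex (SD, n = 3, log2 fold change -0.96, adjusted p = 1.48e-05, limma). *Gria3* was 57.1 FPKM in the cortex and 56.5 FPKM in the hippocampus, with a log2 fold change of -0.02 (95% interval -0.17 to 0.14). The summed AMPA subunit FPKM ran from 262 to 273 in the cortex, and from 503.6 to 549 in the hippocampus. *Gria1* supplied 24.5% ± 3.46 of that sum in the cortex and 54.7% ± 1.10 in the hippocampus (SD, n = 3). The shares of *Gria2*, *Gria3* and *Gria4* went from 42.1%, 21.3% and 12.04% in the cortex to 31.7%, 10.6% and 3.03% in the hippocampus. The ratio of *Gria1* to *Gria2* went from 0.588 ± 0.122 in the cortex to 1.73 ± 0.0659 in the hippocampus (SD, n = 3), without overlap.

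The *Cacng* auxiliary subunits also differed in makeup. *Cacng8* (chr7:3390683-3415648), which encodes the TARP gamma-8 protein known for its abundance in hippocampus, was 40.1, 49.1 and 40.0 FPKM in cortex Con 1 to 3. It was 135, 128 and 130.1 FPKM in hippocampus Con 1 to 3, without overlap (log2 fold change 1.59, SE 0.09, adjusted p = 2.22e-06, limma). *Cacng5*, encoding TARP gamma-5, was higher in the hippocampus as well, at 3.63 ± 0.829 FPKM against 1.41 ± 0.195 FPKM (SD, n = 3, log2 fold change 0.92, adjusted p = 0.000847, limma). *Cacng3*, encoding TARP gamma-3, was lower in the hippocampus at 34.9 ± 1.83 FPKM against 65.3 ± 3.27 FPKM (SD, n = 3, log2 fold change -0.88, adjusted p = 2.28e-05, limma). *Cacng2*, which encodes stargazin itself, stood at -0.30 on the log2 scale and did not pass the adjusted threshold (limma adjusted p = 0.0878), and without hippocampus Con 3 its log2 fold change was -0.15 (adjusted p = 0.171). *Cacng7*, encoding TARP gamma-7, had a log2 fold change of -0.22 (95% interval -0.44 to 0.00225). *Cacng7* and *Cacng8* are neighbours on the plus strand of chromosome 7, 22.5 kb apart (GRCm38), and differed in regional pattern. *Cacng8* made up 19.3% ± 2.53 of the *Cacng* sum in the cortex and 49.4% ± 1.45 in the hippocampus (SD, n = 3). The ratio of *Cacng8* to *Cacng3* went from 0.661 ± 0.0868 in the cortex to 3.76 ± 0.192 in the hippocampus (SD, n = 3).

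**Figure D2:**
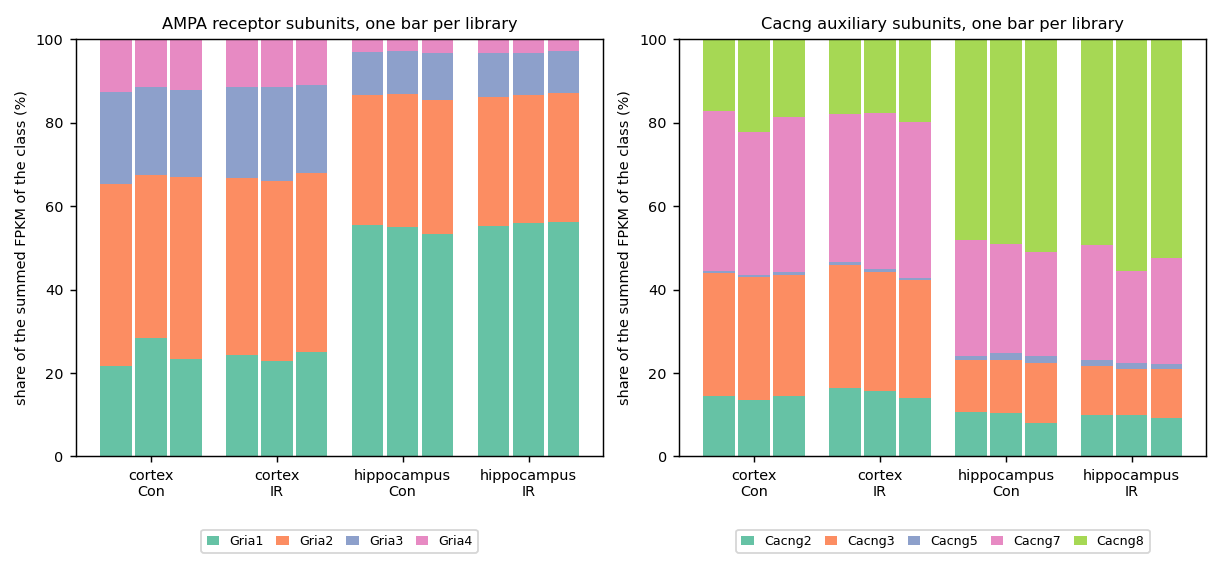
Share (%) of each subunit in the summed FPKM of the AMPA receptor subunits (left) and the *Cacng* auxiliary subunits (right), with a stacked bar for each library, 3 per group. *Gria1* takes 21.8% to 28.4% of the AMPA sum in cortex Con and 53.4% to 55.6% in hippocampus Con, and the bars of IR libraries resemble those of Con in the same tissue.

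NMDA receptor subunits did not pass the adjusted threshold between the tissues in Con in any of the 6 genes tested. *Grin1* was 123 and 124 FPKM in cortex and hippocampus, with a log2 fold change of 0.02 (95% interval -0.14 to 0.18). At an unadjusted p under 0.05, *Grin2c*, an NMDA subunit of astrocytes and cerebellar granule cells, stood at 0.20 on the log2 scale (limma adjusted p = 0.060) and *Grin2a*, the subunit that gains in the mature forebrain, stood at -0.43 (limma adjusted p = 0.0892). The hippocampus Con libraries held 8.72, 8.14 and 12.5 FPKM of *Grin2a*, so Con 3 was the highest of its group. Without that library *Grin2a* was lower in the hippocampus (log2 fold change -0.60, adjusted p = 0.0111). It also passed without cortex Con 2 (-0.57, adjusted p = 0.0458, limma) and in a single model of all 12 libraries (adjusted p = 0.0413, limma). *Grin2c* passed in that model (adjusted p = 0.0127, limma) and with no filter on low values (adjusted p = 0.0413, limma). *Grin2b*, the subunit of early development, had a log2 fold change of 0.15 (95% interval -0.06 to 0.36). The ratio of *Grin2b* to *Grin2a* was 1.53, 2.31 and 1.41 in cortex Con 1 to 3 and 2.71, 3.00 and 2.23 in hippocampus Con 1 to 3, so the groups overlapped. *Grin2d*, a subunit of interneurons, and *Grin3a*, a subunit that lowers calcium entry, had log2 fold changes of -0.14 and -0.01. The summed NMDA FPKM ran from 179 to 182 in the cortex, and from 175 to 192 in the hippocampus. *Grin1* shares exon sequence with the antisense gene *Grin1os*, which is listed separately.

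Kainate subunits had opposite regional patterns within the class. *Grik4* (chr9:42518135-42944493), a high-affinity subunit known from CA3 pyramidal cells, was 8.17, 8.62 and 8.07 FPKM in cortex Con 1 to 3. In hippocampus Con 1 to 3 it was 31.1, 30.2 and 22.0 FPKM, with Con 3 the lowest of its group and still above every cortex library. Its log2 fold change was 1.61 (SE 0.12, adjusted p = 9.74e-06, limma), and 1.77 without hippocampus Con 3. *Grik3*, a subunit of presynaptic kainate receptors, was lower in the hippocampus at 6.97 ± 0.486 FPKM against 15.96 ± 1.05 FPKM (SD, n = 3, log2 fold change -1.09, adjusted p = 1.03e-05, limma). *Grik4* over *Grik3* gave a ratio of 0.521 ± 0.0464 in the cortex against 4.03 ± 0.960 in the hippocampus (SD, n = 3). These are the genes whose promoters are shown above with 2 and 7 GC boxes. *Grik2*, the main pore-forming kainate subunit, and *Grik5*, the other high-affinity subunit, were higher in the hippocampus by 0.51 and 0.26 on the log2 scale (adjusted p = 0.000709 and 0.0225). *Grik1*, known from interneurons, had a log2 fold change of -0.10 (95% interval -0.31 to 0.12).

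The delta receptor gene *Grid1*, a synapse organizer that binds cerebellins, was 22.4, 20.5 and 20.6 FPKM in cortex Con 1 to 3. It was 25.9, 26.0 and 25.7 FPKM in hippocampus Con 1 to 3, above every cortex library (log2 fold change 0.28, SE 0.07, adjusted p = 0.0122, limma). The call was lost without cortex Con 3 (adjusted p = 0.0534). That of *Grik5* was lost under quantile normalization (adjusted p = 0.0502) and without cortex Con 1, cortex Con 3 or hippocampus Con 2 (largest adjusted p = 0.103).

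Metabotropic receptors were lower in the hippocampus in 4 of the 6 genes tested and higher in 1. *Grm8* (chr6:27275119-28135178), a presynaptic inhibitory receptor, was 4.79, 4.43 and 5.38 FPKM in cortex Con 1 to 3. In hippocampus Con 1 to 3 it was 1.11, 0.801 and 1.53 FPKM, below every cortex library (log2 fold change -1.46, SE 0.13, adjusted p = 3.39e-05, limma). *Grm4*, another presynaptic receptor, and *Grm3*, a receptor of astrocytes and neurons, were lower too, with log2 fold changes of -1.38 and -0.62 (adjusted p = 4.67e-05 and 0.000699, limma). *Grm2*, a presynaptic autoreceptor, was lower by less (log2 fold change -0.58, adjusted p = 0.0232), a call lost when any 1 of the 3 cortex Con libraries was left out (largest adjusted p = 0.0785) and with no filter on low values (adjusted p = 0.168). Without hippocampus Con 1, the lowest library, its log2 fold change was -0.37 (adjusted p = 0.0153, limma). *Grm5*, the receptor that couples to phospholipase C in postsynaptic spines, was the member that was higher in the hippocampus, at 38.8 ± 2.28 FPKM against 25.3 ± 2.29 FPKM (SD, n = 3, log2 fold change 0.60, adjusted p = 0.000601, limma). *Grm7*, a receptor of the presynaptic active zone, had a log2 fold change of -0.06 (95% interval -0.24 to 0.12).

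The same comparison in irradiated mice rests on 6 other libraries. There 19 of the 27 genes differed at an adjusted p under 0.05, 10 higher and 9 lower in the hippocampus (70.4%, against 46.7% of 14173 genes tested, 23.7% higher and 23.0% lower). The groups did not overlap for the same number, 19 genes, against 57.3% of all genes. The direction was shared by 23 of the 27 genes, and 15 genes passed in both Con and IR, each in the same direction, which is 55.6% of the 27 against 30.1% of the 13990 genes tested in both. *Gria1*, *Grik4* and *Cacng8* had log2 fold changes of 2.00, 1.79 and 1.53 in IR. *Grm2* passed in Con and not in IR, where it was 18.4 ± 1.88 FPKM in the cortex and 18.9 ± 1.59 FPKM in the hippocampus (SD, n = 3, log2 fold change 0.04, 95% interval -0.15 to 0.23). *Gria3*, *Grin3a*, *Cacng2* and *Cacng7* passed in IR and not in Con, with log2 fold changes of -0.28, 0.29, -0.61 and -0.51 (adjusted p = 0.000728, 0.00628, 9.15e-05 and 0.000711, limma). *Cacng7* did pass in Con with quantile normalization and without hippocampus Con 1 (adjusted p = 0.0356 and 0.0370, limma). Whether the regional difference itself changed with irradiation is the interaction given below.

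**Figure D3:**
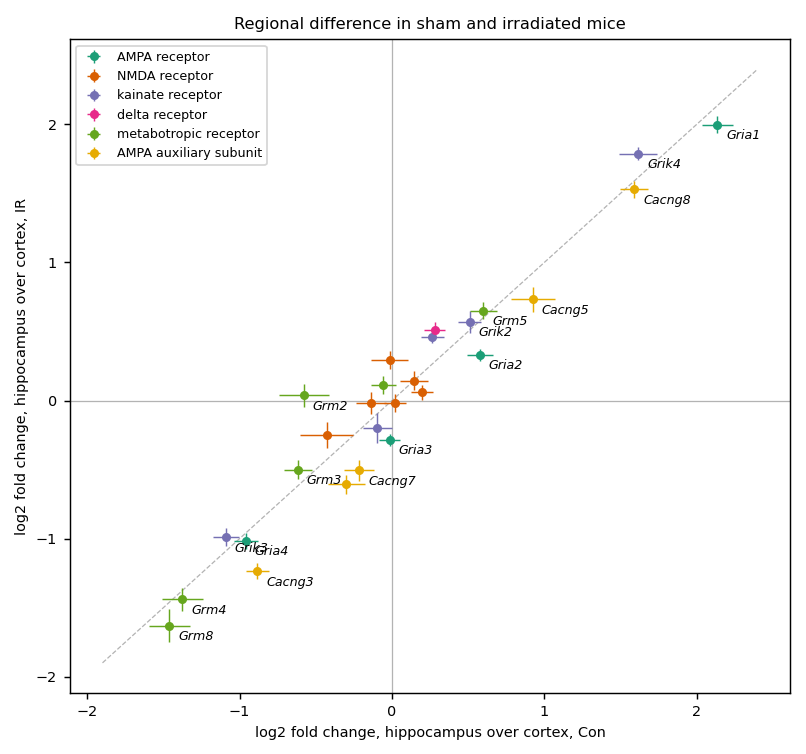
Log2 fold change of hippocampus over cortex in Con (x axis) and IR (y axis) for the 27 tested genes, with standard errors as bars, colours for receptor classes and a dashed line where both are equal. *Gria1*, *Grik4* and *Cacng8* sit at the top right and *Grm8* and *Grm4* at the bottom left, and *Grm2* lies off the line at -0.58 in Con and 0.04 in IR.

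The second question was what irradiation did in each tissue. In the hippocampus, limma gave 0 of the 27 genes an adjusted p under 0.05, against 0.0285% of the 14043 genes tested (4 genes). At an unadjusted p under 0.05 there were 5 genes, all lower in IR (18.5%, against 13.9% of all genes, 7.06% higher and 6.89% lower): *Gria2*, *Gria3*, *Grik1*, *Cacng3* and *Cacng7*. The groups did not overlap for 7 genes, 5 lower and 2 higher (25.9%, against 19.8% of all genes, 9.36% lower and 10.5% higher). The median absolute log2 fold change was 0.12 over the 27 genes and 0.10 over all genes. All 4 AMPA subunits and all 5 *Cacng* genes had a log2 fold change below 0, with medians of -0.18 and -0.18 against -0.01 over all genes. These signs were kept in each of the 13 alternatives run, quantile normalization included.

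*Cacng3* had the lowest adjusted p of the 27 genes. It was 34.9, 33.1 and 36.8 FPKM in hippocampus Con 1 to 3 and 26.8, 25.9 and 29.3 FPKM in IR 1 to 3. Every IR library lay below every Con library, with a log2 fold change of -0.34 (SE 0.07, limma adjusted p = 0.219). In a single model over all 12 libraries its adjusted p was 0.0437. In the cortex *Cacng3* was 68.7, 65.0 and 62.2 FPKM in Con and 68.3, 66.0 and 62.7 FPKM in IR, which overlap.

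*Cacng7* was 78.3, 68.0 and 63.9 FPKM in hippocampus Con and 62.7, 51.0 and 62.9 FPKM in IR. Con 3 lay just above the highest IR library, and the log2 fold change was -0.25 (SE 0.11, limma adjusted p = 0.356). Its unadjusted p was over 0.05 in 3 of the 6 fits that left out a library and in 3 of 7 other settings, quantile normalization among them, and without hippocampus IR 2 the log2 fold change was -0.15. *Cacng2* was 29.7, 27.3 and 20.5 FPKM in Con and 22.5, 22.8 and 22.5 FPKM in IR, so Con 3 lay below the IR libraries and the other Con libraries above them. *Cacng8* was 135, 128 and 130.1 FPKM in Con and 112, 128 and 129.6 FPKM in IR, with IR 1 the lowest. The summed *Cacng* FPKM was 255 to 281 in Con and 227 to 247 in IR. The ratio of *Cacng8* to *Cacng3*, given as a description, was 3.54 to 3.88 in Con and 4.18 to 4.97 in IR.

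*Gria2* (chr3:80681450-80802835) was 170.1, 175 and 162 FPKM in hippocampus Con and 139.9, 145 and 151 FPKM in IR. The IR libraries lay below the Con libraries of this gene, whose promoter is shown above with the RE1 parts 2 bases apart, with a log2 fold change of -0.22 (SE 0.07, limma adjusted p = 0.278). *Gria3* (chrX:41400854-41678601), which pairs with GluA2 in receptors that cycle at the synapse, was 57.2, 56.3 and 55.9 FPKM in Con and 47.0, 47.6 and 49.8 FPKM in IR. Its groups did not overlap either, with a log2 fold change of -0.23 (SE 0.06, limma adjusted p = 0.247). *Gria1* and *Gria4* had log2 fold changes of -0.15 and -0.15 with overlapping groups. The summed AMPA FPKM was 549, 547 and 503.6 in Con and 449, 472 and 489 in IR, without overlap. Subunit shares moved little: *Gria1* made up 54.7% ± 1.10 of the sum in Con and 55.8% ± 0.54 in IR (SD, n = 3).

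*Grik1* was 3.32, 3.23 and 3.32 FPKM in hippocampus Con and 2.29, 3.00 and 2.66 FPKM in IR, without overlap (log2 fold change -0.24, SE 0.09, limma adjusted p = 0.341). Its unadjusted p stayed under 0.05 in only 1 of the 6 fits that left out a library, that without hippocampus IR 2. The summed kainate FPKM, to which *Grik1* adds little, was 136 to 143 in Con and 147 to 149 in IR. NMDA subunits had log2 fold changes between -0.13 (*Grin2b*) and 0.08 (*Grin3a*), and metabotropic receptors between -0.12 (*Grm8*) and 0.27 (*Grm2*), and none of these 12 genes had an unadjusted p under 0.05. *Grm2* was 11.4, 16.9 and 19.0 FPKM in Con and 20.2, 17.1 and 19.3 FPKM in IR, so Con 1 stood low and the groups overlapped. The log2 fold change of *Grm2* was 0.07 without hippocampus Con 1 and 0.42 without hippocampus Con 3.

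Without hippocampus Con 3 the number of all genes with an adjusted p under 0.05 went from 4 to 880. That is from 0.0285% to 6.33% of the genes tested, while 1 of the 27 genes passed, a smaller share. It was *Cacng2* (log2 fold change -0.32, adjusted p = 0.0333, limma). *Cacng3*, *Gria2* and *Gria3* then had log2 fold changes of -0.31, -0.25 and -0.23 (adjusted p = 0.0504, 0.0542 and 0.0557, limma). Of the 27 genes, 10 in place of 5 then had an unadjusted p under 0.05, while over all genes the share went from 13.9% to 26.0%. *Cacng2*, *Cacng3*, *Cacng7*, *Gria1*, *Gria2* and *Gria3* were lower and *Grin2a*, *Grin3a*, *Grm2* and *Grm3* higher. Markers of several cell types also had other levels in the hippocampus groups. CA1 markers (*Fibcd1*, *Wfs1* and *Pou3f1*) summed to 107 to 121 FPKM in Con and 81.6 to 114 FPKM in IR. All 3 had a log2 fold change below 0, 1 at an unadjusted p under 0.05 and none past the adjusted threshold in limma. Dentate markers summed to 72.9 to 94.1 FPKM in Con and 92.4 to 100.4 FPKM in IR. All 4 had a log2 fold change above 0, 1 at an unadjusted p under 0.05 and none past the adjusted threshold in limma. Microglia markers (*Cx3cr1*, *P2ry12*, *Tmem119* and *Csf1r*) summed to 57.0 to 61.5 FPKM in Con and 40.1 to 42.5 FPKM in IR. All 4 microglia markers were lower at an unadjusted p under 0.05, and 1 of them, *Csf1r*, fell by 0.84 on the log2 scale past the adjusted threshold (limma adjusted p = 0.0126). All 4 astrocyte markers (*Aqp4*, *Aldh1l1*, *Gja1* and *Gfap*) and 5 of 6 inhibitory neuron markers (*Gad1*, *Gad2*, *Slc32a1*, *Pvalb*, *Sst* and *Vip*) had a log2 fold change below 0, with 2 and 1 at an unadjusted p under 0.05 and none past the adjusted threshold in limma. Their summed FPKM overlapped between Con and IR, at 248 to 340 and 249 to 283 for astrocytes, and 359 to 509 and 405 to 437 for inhibitory neurons. Endothelial markers (*Cldn5*, *Pecam1* and *Flt1*) summed to 33.4 to 39.0 FPKM in Con and 43.7 to 45.1 FPKM in IR, without overlap, all 3 with a log2 fold change above 0, 1 at an unadjusted p under 0.05 and none past the adjusted threshold in limma. The oligodendrocyte markers *Mog* and *Mag* both stood at -0.30 on the log2 scale, without overlap between the groups and with an unadjusted p under 0.05 (limma adjusted p = 0.247 and 0.327), while *Mbp* was 607 to 741 FPKM in Con and 614 to 773 FPKM in IR. The excitatory neuron markers *Slc17a7*, *Neurod6* and *Nrgn* had log2 fold changes of -0.03, -0.10 and -0.12, none with an unadjusted p under 0.05. The part of these cell types in the lower AMPA and *Cacng* values was not tested.

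**Figure D4:**
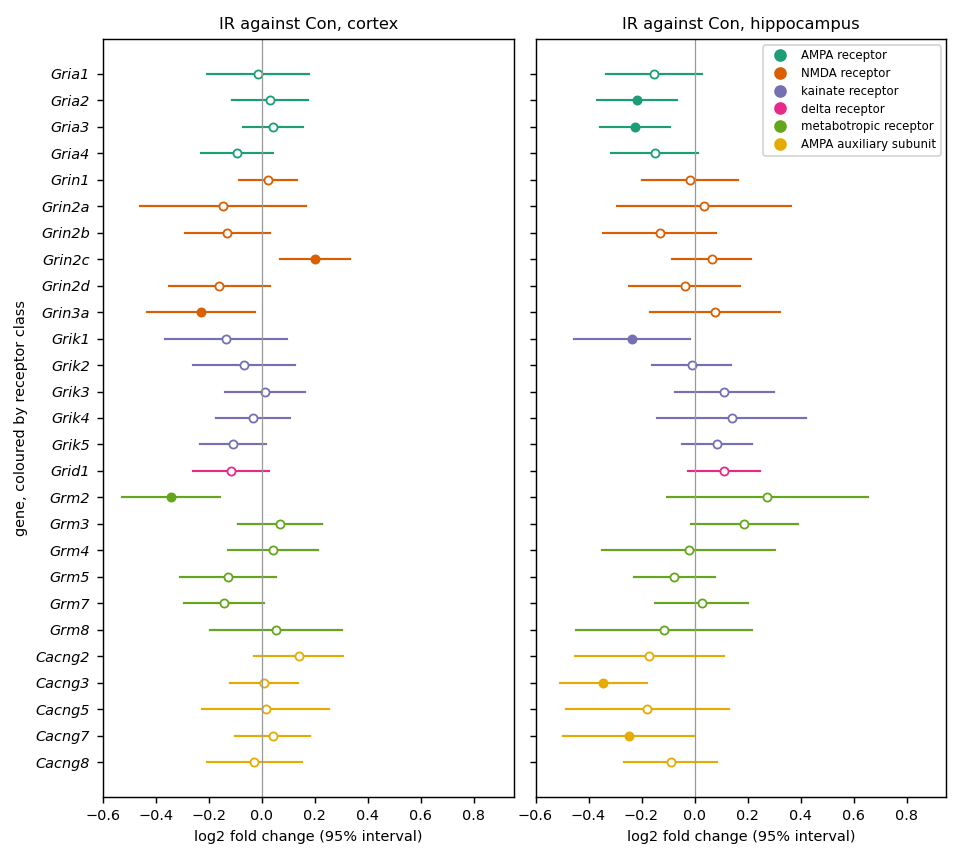
Log2 fold change of IR over Con with 95% intervals for the 27 tested genes in the cortex (left) and the hippocampus (right), coloured by class, with filled points at an unadjusted p under 0.05. The 9 AMPA subunit and *Cacng* genes all lie left of 0 in the hippocampus, and in the cortex *Grin2c* lies to the right and *Grin3a* and *Grm2* to the left.

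In the cortex limma also gave 0 of the 27 genes an adjusted p under 0.05, against 0.725% of the 14065 genes tested (102 genes). At an unadjusted p under 0.05 there were 3 genes, 1 higher and 2 lower (11.1%, against 14.1% of all genes, 8.16% higher and 5.94% lower). The groups did not overlap for 5 genes, 1 higher and 4 lower (18.5%, against 20.3% of all genes, 11.2% higher and 9.09% lower). The median absolute log2 fold change was 0.07 over the 27 genes and 0.08 over all genes. *Grm2* (chr9:106643095-106656082) was 22.4, 22.5 and 25.7 FPKM in cortex Con 1 to 3 and 16.9, 17.8 and 20.5 FPKM in IR 1 to 3. Every IR library lay below every Con library, with a log2 fold change of -0.34 (SE 0.08, limma adjusted p = 0.110). *Grin2c* was 10.5, 11.01 and 10.5 FPKM in Con and 12.9, 12.1 and 12.3 FPKM in IR, all IR libraries above all Con libraries (log2 fold change 0.20, SE 0.06, limma adjusted p = 0.181). *Grin3a* was 5.42, 6.62 and 6.80 FPKM in Con and 4.84, 5.35 and 5.38 FPKM in IR, with Con 1 only just above the IR libraries (log2 fold change -0.23, SE 0.09, limma adjusted p = 0.297). Its unadjusted p was over 0.05 in 3 of the 6 fits that left out a library and with no filter on low values.

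*Grik5* and *Grid1* also had lower values in every cortex IR library than in any cortex Con library, without an unadjusted p under 0.05. AMPA subunits had log2 fold changes between -0.09 (*Gria4*) and 0.04 (*Gria3*) in the cortex, and *Cacng* genes between -0.03 (*Cacng8*) and 0.14 (*Cacng2*). For *Gria2* the 95% interval was -0.11 to 0.17, and for *Cacng3* it was -0.12 to 0.14. The summed AMPA FPKM of the cortex was 262 to 273 in Con and 261 to 274 in IR. Microglia markers were lower in cortex IR as well, at 53.2 to 59.0 FPKM in Con and 35.0 to 51.7 FPKM in IR. Endothelial markers summed to 35.5 to 44.5 FPKM in cortex Con and 47.4 to 56.0 FPKM in cortex IR. *Mbp* was 627 to 767 FPKM in cortex Con and 811 to 971 FPKM in cortex IR, and *Neurod6* 31.0 to 36.6 FPKM and 38.7 to 45.8 FPKM, both without overlap and with an unadjusted p under 0.05 (log2 fold changes 0.29 and 0.27, limma adjusted p = 0.210 and 0.181). *Mog*, *Mag*, *Slc17a7* and *Nrgn* had log2 fold changes of 0.05, 0.11, -0.02 and 0.04. The part of these cell types in the cortex values was not tested.

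Whether the irradiation difference itself differed between the tissues was tested as an interaction over all 12 libraries, positive where IR over Con was higher in the hippocampus. Limma gave 0 of the 27 genes an adjusted p under 0.05, against 0.0823% of the 14577 genes tested (12 genes). At an unadjusted p under 0.05 there were 7 genes, 3 positive and 4 negative (25.9%, against 10.3% of all genes, 4.71% positive and 5.58% negative). *Gria2*, *Gria3*, *Cacng3* and *Cacng7* were negative at -0.25, -0.27, -0.35 and -0.29 (limma adjusted p = 0.405, 0.246, 0.243 and 0.474). For *Cacng7* the unadjusted p was over 0.05 in 8 of the 12 fits that left out a library and in 3 of 6 other settings, and the value was -0.19 without hippocampus IR 2. For *Gria2* it was over 0.05 with quantile normalization, where the value was -0.16. *Grm2*, *Grid1* and *Grik5* were positive at 0.62, 0.23 and 0.19 (limma adjusted p = 0.357, 0.404 and 0.418). The unadjusted p of *Grid1* was over 0.05 in 3 and that of *Grik5* in 2 of the 12 fits that left out a library. Without hippocampus Con 3, *Cacng2* passed at -0.46 (adjusted p = 0.0385, limma) and *Grm2* at 0.76 (adjusted p = 0.0492, limma). The calls over all genes then went from 12 to 480, or 3.3% of the genes tested. Among markers, the interaction was negative for 5 of 6 of inhibitory neurons, 4 of 4 of microglia, 3 of 3 of endothelium, 2 of 4 of astrocytes and 2 of 3 of CA1 and positive for 4 of 4 of dentate granule cells, with 1 astrocyte and 1 CA1 marker at an unadjusted p under 0.05 and none past the adjusted threshold in limma. The interaction was also negative for the oligodendrocyte markers *Mbp*, *Mog* and *Mag* at -0.28, -0.36 and -0.42 and for the excitatory neuron markers *Slc17a7*, *Neurod6* and *Nrgn* at -0.01, -0.37 and -0.16. Of these, *Mog*, *Mag* and *Neurod6* had an unadjusted p under 0.05 (limma adjusted p = 0.390, 0.444 and 0.300). The part of these cell types in the interaction was not tested.

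**Figure D5:**
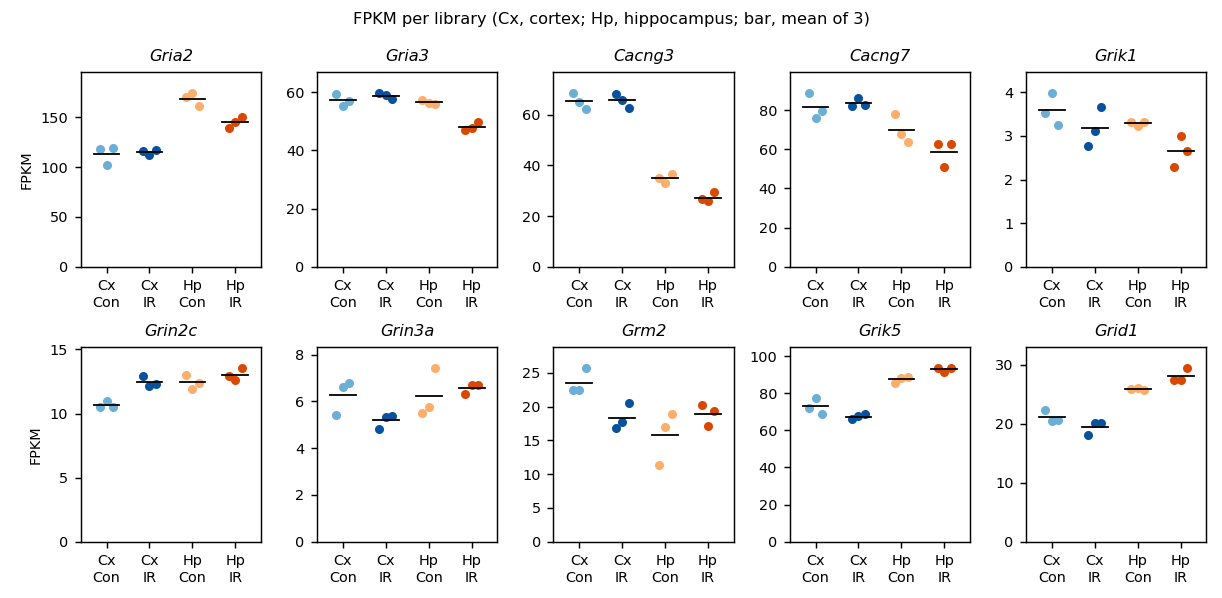
FPKM of 10 genes in every library (Cx, cortex; Hp, hippocampus), with a bar at the mean of 3 and each axis starting at 0. *Gria2*, *Gria3* and *Cacng3* are lower in the 3 hippocampus IR libraries than in hippocampus Con and overlap in the cortex, and *Grm2* is lower in the 3 cortex IR libraries.

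Other genes of the glutamatergic synapse were taken from 3 lists: 16 further receptor-associated proteins, 22 postsynaptic scaffold and kinase genes, and 12 genes of glutamate transport and metabolism, all tested. Between hippocampus and cortex in Con, 8 were higher and 4 lower in the hippocampus in the first list, 11 and 4 in the second and 6 and 2 in the third, at an adjusted p under 0.05 in limma, against 36.3% of all genes in both directions together. In cortex IR against Con, 1 of 16, 1 of 22 and 0 of 12 passed, and in the hippocampus none did. In the order of the lists, 5, 7 and 1 genes in the cortex and 6, 1 and 1 in the hippocampus had an unadjusted p under 0.05, against 14.1% and 13.9% of all genes. In the cortex 4 were higher and 1 lower in IR in the first list, 6 and 1 in the second and 1 and 0 in the third. In the hippocampus 5 of the first list were higher in IR and 1 lower, unlike the AMPA and *Cacng* genes, which were all lower. The 1 of 22 and 1 of 12 in the hippocampus were both lower and lie below the share over all genes. *Nptx2*, a secreted pentraxin that clusters AMPA receptors, was 19.3, 21.8 and 16.4 FPKM in cortex Con and 28.9, 28.4 and 29.8 FPKM in cortex IR. It rose without overlap (log2 fold change 0.58, SE 0.09, limma adjusted p = 0.0244). In the hippocampus *Nptx2* was 12.2, 13.4 and 13.7 FPKM in Con and 11.5, 10.96 and 10.8 FPKM in IR, and its interaction with tissue was -0.80 (limma adjusted p = 0.0303). *Homer1*, a gene known for a scaffold of group I metabotropic receptors, has 1 value per library, so its different transcripts cannot be told apart. *Homer1* rose in the cortex by 0.84 on the log2 scale (limma adjusted p = 0.00400), and its interaction with tissue was -0.81 (limma adjusted p = 0.0303). Each of these interactions passed the adjusted threshold in only 6 of 18 alternatives (*Nptx2* between -0.89 and -0.70 with adjusted p up to 0.147, *Homer1* between -0.86 and -0.72 with adjusted p up to 0.147, limma). In the cortex, *Homer1* passed in 12 of 13 alternatives and *Nptx2* in 8 of 13, and *Nptx2* did not pass without cortex IR 1, cortex IR 2 or cortex IR 3 (adjusted p = 0.116, 0.0800 and 0.0819, limma). *Grm5*, whose product Homer1 binds, stood at -0.13 on the log2 scale there without passing the test (95% interval -0.31 to 0.05).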

How the data were processed

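RNA from cortex and hippocampus was sequenced with a directional kit. The methods name an RNeasy Lipid kit and poly(A) selection, and the labels name Trizol and total RNA. The authors trimmed reads with FASTX_Trimmer and BBMap, aligned them with TopHat (build mm10 per the submitters' processing notes) and estimated FPKM with Cufflinks, with geometric normalization in edgeR. The annotation and the strand setting are not given in the sources used here. The deposited FPKM hold 1 value per gene symbol. No counts were used, so depth is unknown and no counting interval is given.

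The deposited FPKM were transformed to log2(FPKM + 1), which understates changes of low genes. Each fit tested the genes that reached 0.5 FPKM in 3 or more of its libraries with limma 3.58.1 (R 4.3.3) with trend and robust prior, and p values were Benjamini-Hochberg adjusted over all tested genes. The methods name a t test, which was not used. The 2 groups compared entered each fit, and all 12 libraries entered the interaction. Groups came from the labels. No pair of libraries held identical values. Gene positions came from GENCODE M21 and motifs were searched in RefSeq promoters with Python 3.11.15. Figures were drawn with matplotlib 3.10.9.

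Genes and lists were chosen with earlier results of these data known, and 1 marker of each of 2 lists is not reported here. Values of every library are given for genes with an unadjusted p under 0.05 in IR against Con, and for the largest adjusted-significant regional difference of each class. Values of *Cacng2*, *Cacng8*, *Grik5*, *Grid1* and *Grin2a* per library were added after they were seen. Alternatives were no filter, a minimum of 1 FPKM in each library, 0.1 as the pseudocount, quantile normalization, limma without trend and robust prior, all 12 libraries in a single model, the library number as a block, and leaving out each library in turn.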

Additional observations from a re-analysis of the deposited data

Results flagged for a closer look

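The IR values of *Grik5* and *Grid1* lay on opposite sides of Con in the 2 tissues, in every library. *Grik5* was 72.3, 77.5 and 69.0 FPKM in cortex Con and 65.8, 67.6 and 68.7 FPKM in cortex IR, and 85.5, 88.4 and 88.9 FPKM in hippocampus Con and 93.5, 91.6 and 93.7 FPKM in hippocampus IR. *Grid1* was 22.4, 20.5 and 20.6 FPKM in cortex Con and 18.1, 20.2 and 20.1 FPKM in cortex IR, and 25.9, 26.0 and 25.7 FPKM in hippocampus Con and 27.3, 27.4 and 29.5 FPKM in hippocampus IR. For both genes every IR library was below every Con library in the cortex and above every Con library in the hippocampus. The groups did not overlap for 20.3% of all genes in the cortex and for 19.8% in the hippocampus. Of the 14577 genes tested for the interaction, 0.878% had no overlap in either tissue and opposite directions. The nearest *Grik5* libraries of the cortex groups were Con 3 at 69.0 FPKM and IR 3 at 68.7 FPKM. The interaction was 0.19 for *Grik5* (limma adjusted p = 0.418) and 0.23 for *Grid1* (limma adjusted p = 0.404), so the difference between the tissues did not pass the adjusted threshold for either gene. The unadjusted p of *Grik5* was 0.0506 with the replicate block.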

How the results depend on the processing

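No gene past the adjusted threshold between the tissues, or past an unadjusted p of 0.05 in the other comparisons, changed direction in the alternatives run. Of the 135 log2 fold changes of the 27 genes in 5 comparisons, 30 took the other sign in at least 1 alternative, all with a reported value of at most 0.14 in size. *Gria3* between the tissues in Con, for example, was -0.02 and became 0.01 without cortex Con 1. The number of the 27 genes past the adjusted threshold between the tissues stayed within 1.5 times its value over the alternatives, at 13 to 19 in Con and 18 to 20 in IR. Over all genes the share past it was 15.1% to 44.4% in Con and 22.6% to 48.2% in IR, lowest with no filter. *Cacng2* passed in Con with quantile normalization, in the single model of all 12 libraries and without hippocampus Con 1 (adjusted p = 0.0280, 0.0395 and 0.0272, limma). For IR against Con in the hippocampus, 1 gene passed in a single model of all 12 libraries (*Cacng3*), against 0.527% of all genes. Leaving out each library in turn gave 0 to 1, against 0% to 6.33% of all genes. The unadjusted count of the hippocampus was 4 to 10 when libraries were left out, 10 without hippocampus Con 3. Over all genes the share was 8.35% to 26%, also highest without that library. In the cortex the unadjusted count was 5 with quantile normalization and 2 to 5 when libraries were left out (3 with all), 5 without cortex Con 1, cortex Con 2 or cortex IR 3 and 2 without cortex IR 1. Over all genes the share was 14.3% with quantile normalization and 8.69% to 15.1% when libraries were left out, lowest without cortex IR 1. For the interaction, the adjusted count was 0 to 2 (2 without hippocampus Con 3) and the unadjusted count 4 to 9 (4 without cortex IR 1) when libraries were left out. Over all genes these shares were 0% to 3.3% and 7.39% to 19.8%.

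Over all genes, the adjusted calls ranged from 16 to 107 in the cortex, from 0 to 880 in the hippocampus and from 0 to 480 for the interaction, so adjusted p values of single genes move with the libraries used. Whether same-numbered cortex and hippocampus libraries came from the same mice is not stated, and correlations over 3 libraries a group cannot settle it. The mean correlation of same-numbered deviations was 0.07 and 0.02 between the tissues in Con and IR, with 0.20 and 0.14 for number 3. Between Con and IR, whose mice differ, the mean was -0.01 and -0.21 in cortex and hippocampus. With the replicate block, 18 genes passed between the tissues in Con (*Cacng2* and *Grin2a* added, adjusted p = 0.0486 and 0.00487, limma), 19 in IR and 0 in the other comparisons, whose unadjusted counts were 4 in the cortex, 4 in the hippocampus and 8 for the interaction. Over all genes 35.1% and 45.2% passed between the tissues in Con and IR. The unadjusted shares were 13.3% in the cortex, 10.1% in the hippocampus and 10.3% for the interaction. With 3 libraries a group, the smallest p that an exact permutation test of a single gene allows is 0.1.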
